A study of Mus musculus with 6 samples.

Results

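The genes described here belong to the PI3K-AKT pathway: 2 phosphoinositide phosphatases (Inpp4b and Inpp5d), 2 subunits of phosphoinositide 3-kinase (Pik3cd and Pik3r1), its inhibitor Pik3ip1, the kinases Akt1 and Akt2, and the AKT phosphatase Phlpp1. They were chosen by symbol, and every probe set annotated to 1 of these 8 symbols alone was taken, which gave 24 probe sets of 8 genes among 18193 genes with such a probe set on the array. All 6 arrays were used. Thymus RNA came from adult females of 2 F1 hybrids, (AKR/J x FVB/NJ)F1 on 3 arrays, called the AKR cross, and (DBA/2J x FVB/NJ)F1 on 3 arrays, called the DBA cross. Both crosses carry 1 set of FVB/NJ chromosomes, so they differ in the AKR/J or DBA/2J set, and no treatment, transgene or deletion is named. The study asks how baseline thymus expression differs between these genotypes. Whole thymus was taken, which mixes thymocytes with epithelium and other cells, and the labels do not say whether each array is a separate animal, so the spread between arrays may be technical.

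Phosphoinositide 3-kinase of class I adds a phosphate to the membrane lipid PIP2 and so makes PIP3. PIP3 recruits the kinase AKT, which promotes growth and survival and keeps FOXO transcription factors out of the nucleus. PIP3 is turned by 5-phosphatases into PI(3,4)P2, from which 4-phosphatases remove a further phosphate. In the thymus the pathway is known for its part in the survival and growth of thymocytes after pre-TCR and cytokine signals.

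Values are deposited log2 expression levels per probe set. Each difference is the AKR cross mean less the DBA cross mean, in log2 units, with its standard error (SE) from limma. Array medians ran from 5.92 to 5.95, and arrays correlated at 0.994 to 0.996 within a cross and at 0.984 to 0.989 between crosses. Of the 24 probe sets, 22 passed the filter on dim values, which asked that 3 or more of the 6 arrays read above their own 40th percentile. The other 2, 1 each of Pik3cd and Akt1, lay below it on all 6 arrays. The 8 genes were picked with results of this comparison known, so what follows on them is description and no p-value is given. Of the 22, 10 were called, meaning an adjusted p under 0.05 by limma (Benjamini-Hochberg, over the whole array), with 4 higher and 6 lower in the AKR cross. Over all 27385 probe sets tested, 27.2% were called, with 12.2% higher and 15.0% lower in the AKR cross. The crosses did not overlap for 14 of the 22 member probe sets, 7 with AKR above and 7 with AKR below, and for 44.7% of all probe sets tested (22.4% with AKR above and 22.3% with AKR below). The median difference was -0.05 for the 22 member probe sets and 0.01 for all.

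**Figure D1:**
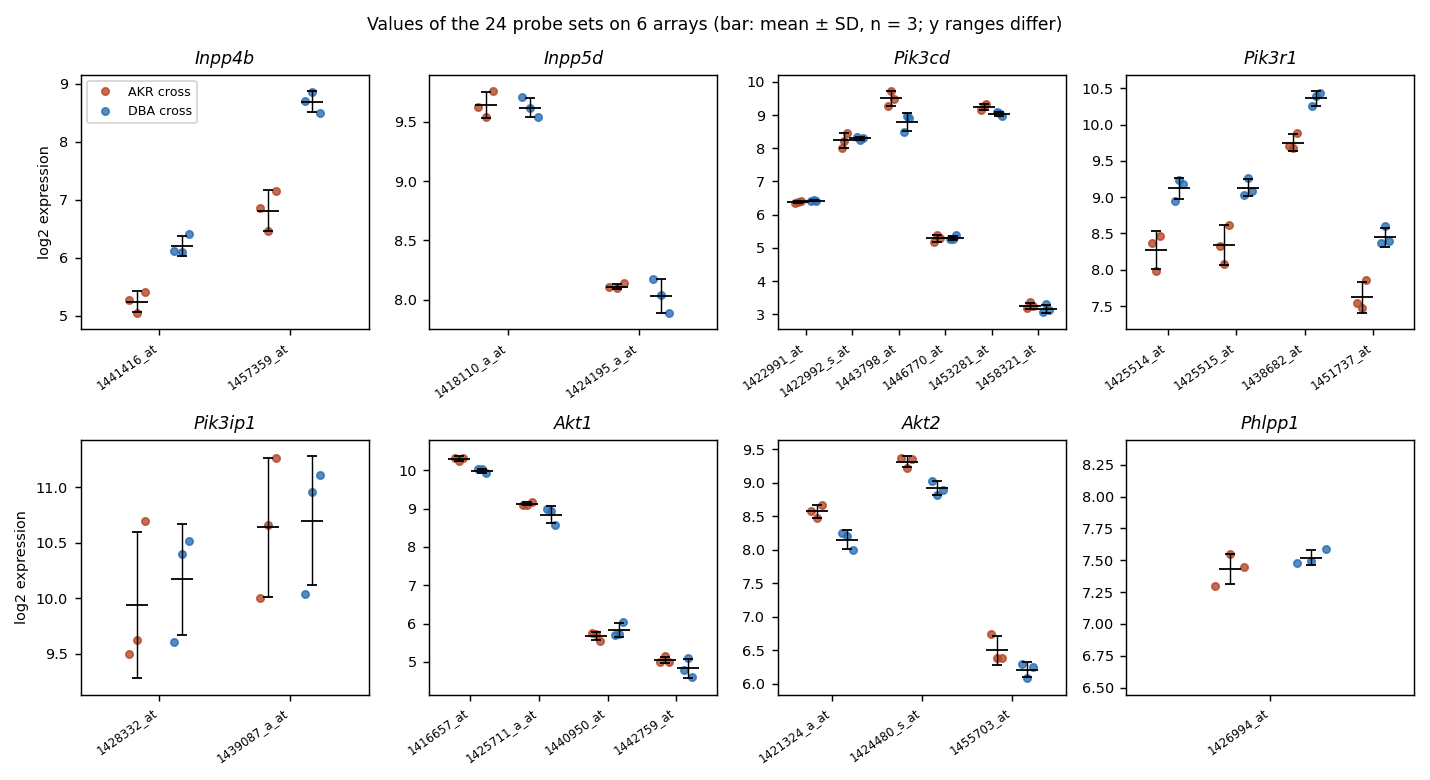
Log2 expression (y axis) of each of the 24 probe sets (x axis), 1 panel per gene, with 3 AKR cross arrays (red, left) and 3 DBA cross arrays (blue, right) per probe set and bars at the mean ± SD. Both Inpp4b and all 4 Pik3r1 probe sets lie lower in the AKR cross, all 3 Akt2 probe sets lie higher, and the Pik3ip1 arrays spread widely within each cross.

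Inpp4b, a 4-phosphatase that removes PI(3,4)P2, stood lower in the AKR cross on both of its probe sets. Probe set 1457359_at read 6.86, 6.45 and 7.14 on the AKR arrays, against 8.70, 8.85 and 8.50 on the DBA arrays. The highest AKR array was thus well below the lowest DBA array, and the means were 6.81 ± 0.35 and 8.69 ± 0.18 (SD, n = 3 each). The difference was -1.87 ± 0.17 (SE), or 3.66-fold higher in the DBA cross, which ranked 138 by size among the 27385 probe sets tested. Probe set 1441416_at, the dimmer measure, read 5.27, 5.05 and 5.40 on the AKR arrays, against 6.11, 6.10 and 6.40 on the DBA arrays. These groups did not overlap either, and the difference was -0.97 ± 0.13 (SE), or 1.95-fold higher in the DBA cross. On 1 of the 3 AKR arrays this probe set lay below the 40th percentile of its array. In whole tissue, fewer cells of a type and less RNA per cell cannot be told apart, which holds for every difference given here. Strain differences in the sequence under the probes were not examined, so a difference on a probe set need not be one of RNA level.

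Some markers of innate-like T cells also stood lower in the AKR cross. The marker lists were drawn up with earlier results of these data known, so their calls and p-values are description. Over all genes, 11.5% were called lower and 12.5% higher in the AKR cross. Of 9 innate-like markers tested by limma with Benjamini-Hochberg adjustment over genes, 5 were called lower (Zbtb16, Maf, Id2, Il18r1 and Cxcr6, by -2.09 to -0.40), 0 were called higher and 4 did not pass. The 4 were Il2rb at -0.14, Tbx21 and Gzma at 0.11 each, and Xcl1 at 0.32. Their summed level, on the linear scale, ran from 3407 to 3722 in the AKR cross and from 4862 to 4986 in the DBA cross. Zbtb16, the marker with the largest difference, which encodes the transcription factor PLZF that defines these cells, read 6.72, 7.02 and 6.72 on the AKR arrays, against 8.80, 8.79 and 9.12 on the DBA arrays. With 1 array left out, 4 or 5 of the 9 were called lower, and the call lost was that of Cxcr6. Without DBA replicate 1, Xcl1 was called higher in the AKR cross (0.43, adjusted p = 0.0457, limma). None of the 9 lay below the 40th percentile on any array. The part of these cells in the Inpp4b difference was not tested. Double-positive thymocyte markers had 1 of 9 higher (2 without AKR replicate 2) and 0 lower in the AKR cross, with sums of 40949 to 44568 in the AKR cross and 41168 to 42745 in the DBA cross. Their defining genes were bright on every array, as with Rag1 at 13.03, 12.88 and 13.06 on the AKR arrays, against 13.04, 13.10 and 13.06 on the DBA arrays. Of the other marker lists, macrophage and dendritic cells had 2 of 9 higher and 1 lower (sums of 9799 to 10455 in the AKR cross and 9167 to 9901 in the DBA cross), with Itgam below the filter. On leaving out any 1 array, 1 of them was called higher, since the Flt3 call was lost each time, and without DBA replicate 1 2 were called lower, with Cd14 added. Thymic epithelium had 1 of 10 higher and 3 lower (sums of 16571 to 17568 in the AKR cross and 16862 to 18556 in the DBA cross), of which 1 was still called lower without AKR replicate 2. Endothelium and fibroblasts had 0 of 9 higher and 1 lower (sums of 3368 to 3924 in the AKR cross and 3484 to 4486 in the DBA cross), with Tek below the filter and the call, of Pdgfra, held only without AKR replicate 2.

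The 5 genes whose 6 values, centred on their mean, lay nearest to those of Inpp4b 1457359_at were Csnk2a1, Col6a3, Rpgrip1, Zfp626 and H2-Ea. The measure was the root mean square difference over the 6 arrays, which was 0.07 for Csnk2a1 and 0.20 to 0.22 for the other 4 genes. Csnk2a1, which encodes a catalytic subunit of casein kinase 2, read 8.83, 8.34 and 9.06 on the AKR arrays, against 10.50, 10.63 and 10.44 on the DBA arrays. The measure takes in all 6 values, so likeness within the AKR cross follows from how the gene was chosen. There AKR replicate 2 was the lowest array of both genes and AKR replicate 3 the highest. All 4 Pik3r1 probe sets had that order in the AKR cross as well. The 4 other tested probe sets of Csnk2a1 differed by -0.55 to 0.16, and 2 of them were also called lower in the AKR cross. The search ran over 12855 genes and 6 arrays, and its ranking is a description.

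Inpp5d encodes SHIP1, the 5-phosphatase of blood cells that turns PIP3 into PI(3,4)P2, the lipid that Inpp4b acts on. Probe set 1418110_a_at read 9.63, 9.54 and 9.76 on the AKR arrays, against 9.71, 9.62 and 9.54 on the DBA arrays. Probe set 1424195_a_at read 8.11, 8.10 and 8.14 on the AKR arrays, against 8.17, 8.04 and 7.89 on the DBA arrays. The crosses overlapped on both, with differences of 0.02 ± 0.08 and 0.08 ± 0.09 (SE).

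Pik3r1 encodes the regulatory subunit alpha, which holds and stabilises the catalytic subunits, and all 4 of its probe sets stood lower in the AKR cross. Probe set 1438682_at read 9.70, 9.68 and 9.89 on the AKR arrays, against 10.25, 10.40 and 10.43 on the DBA arrays. Probe set 1425514_at read 8.37, 7.98 and 8.47 on the AKR arrays, against 8.95, 9.23 and 9.18 on the DBA arrays. The crosses did not overlap on any of the 4 probe sets. Differences ran from -0.85 ± 0.13 for 1425514_at to -0.61 ± 0.08 (SE) for 1438682_at, with -0.79 ± 0.13 for 1425515_at and -0.83 ± 0.12 for 1451737_at between them. In folds these were 1.52 to 1.80 times higher in the DBA cross. The probe sets 1425514_at, 1425515_at and 1451737_at are annotated to the same transcript accession, so they are not independent measures of the gene.

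Inpp4b and Pik3r1 were the members for which every probe set stood lower in the AKR cross with no overlap between the crosses, and their promoter sequences are shown for that reason. RefSeq (GRCm38.p6) gave 15 windows for all 8 genes, each from 250 bases before to 50 bases after a transcription start. Motifs were searched on both strands, namely the GC box GGGCGG with its reverse complement CCGCCC, a FOXO core GTAAACA with its reverse complement TGTTTAC, and a RUNX motif TGTGGT with its reverse complement ACCACA. Capitals mark the matches. The sequences are those of the C57BL/6J reference and not of AKR/J, DBA/2J or FVB/NJ.
Inpp4b, chr8:81342312-81342611, plus strand, GRCm38.p6: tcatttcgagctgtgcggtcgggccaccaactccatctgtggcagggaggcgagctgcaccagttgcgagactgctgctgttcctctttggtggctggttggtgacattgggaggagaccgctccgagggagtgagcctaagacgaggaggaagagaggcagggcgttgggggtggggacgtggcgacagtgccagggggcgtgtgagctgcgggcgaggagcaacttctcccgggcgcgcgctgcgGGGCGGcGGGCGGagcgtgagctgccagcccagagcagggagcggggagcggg
Pik3r1 first start, chr13:101768168-101768467, minus strand, GRCm38.p6: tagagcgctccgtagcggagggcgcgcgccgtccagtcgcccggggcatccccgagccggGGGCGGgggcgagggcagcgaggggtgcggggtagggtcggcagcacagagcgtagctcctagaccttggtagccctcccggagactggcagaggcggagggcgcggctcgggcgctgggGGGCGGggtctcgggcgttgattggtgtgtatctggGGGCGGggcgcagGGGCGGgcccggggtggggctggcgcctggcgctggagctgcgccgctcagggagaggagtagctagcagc
Pik3r1 second start, chr13:101692581-101692880, minus strand, GRCm38.p6: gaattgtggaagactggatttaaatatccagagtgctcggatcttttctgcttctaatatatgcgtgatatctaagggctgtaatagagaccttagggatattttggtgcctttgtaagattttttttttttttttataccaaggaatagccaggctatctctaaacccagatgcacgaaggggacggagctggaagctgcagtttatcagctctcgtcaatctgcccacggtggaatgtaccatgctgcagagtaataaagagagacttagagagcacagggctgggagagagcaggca

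The Inpp4b window held 2 GC boxes and the first Pik3r1 window held 4, with 68.3% and 75.7% G or C. The second Pik3r1 window, 75.6 kb further into the gene, held 0 and had 43.7% G or C. GC boxes were found in 7 of the 15 member windows and in 35.7% of all 32851 windows of that length. FOXO core matches were found in 1 member window, the first of Akt1, and in 3.65% of all windows. RUNX matches were found in 1 member window, of Akt2, and in 16.8% of all windows. A match describes letters in the window, and says nothing of binding.

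Pik3cd encodes the catalytic subunit delta, the main class I form of lymphocytes, and its 6 probe sets did not move as 1. Probe set 1443798_at read 9.28, 9.72 and 9.49 on the AKR arrays, against 8.50, 8.97 and 8.91 on the DBA arrays. It stood higher in the AKR cross without overlap, by 0.71 ± 0.14 (SE), or 1.63-fold. Probe set 1453281_at read 9.16, 9.27 and 9.34 on the AKR arrays, against 9.10, 9.06 and 8.98 on the DBA arrays, a smaller difference of 0.21 ± 0.08 without overlap. Probe set 1422992_s_at read 8.02, 8.21 and 8.47 on the AKR arrays, against 8.35, 8.25 and 8.30 on the DBA arrays, and overlapped. Probe set 1422991_at read 6.34, 6.37 and 6.40 on the AKR arrays, against 6.41, 6.43 and 6.42 on the DBA arrays. That gap is narrow (-0.05 ± 0.09, SE), although the crosses did not overlap. Both 1422991_at and 1422992_s_at are annotated to the same RefSeq accession, whereas 1443798_at and 1453281_at each carry another accession. Of the rest, 1446770_at differed by -0.02 ± 0.10, and 1458321_at, dim on all 6 arrays, by 0.09 ± 0.09. The probe sets thus give no common size or direction for Pik3cd.

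B cells also express Pik3cd, and some of their markers stood higher in the AKR cross. Of 9 B cell markers tested with limma, 5 were called higher in the AKR cross and 0 lower, where 12.5% of all genes were called higher. The other 4 did not pass, with Ms4a1 at 0.03, Fcer2a at 0.11, and Blk and Ighm at 0.18 each. With 1 array left out, 3 or 4 of the 9 were called higher. The count was 3 without AKR replicate 1 or AKR replicate 3. Their summed linear level ran from 10338 to 11014 in the AKR cross and from 8550 to 9674 in the DBA cross. Ighm, by far the brightest of them, makes up most of that sum. It read 13.08, 13.19 and 13.07 on the AKR arrays, against 12.83, 12.94 and 13.04 on the DBA arrays. Ighm was not called (adjusted p = 0.0526, limma) except without DBA replicate 3 (0.23, adjusted p = 0.0321, limma). Pax5 and Cr2 lay below the 40th percentile on 2 of the 3 DBA arrays. The part of B cells in the Pik3cd values was not tested.

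**Figure D2:**
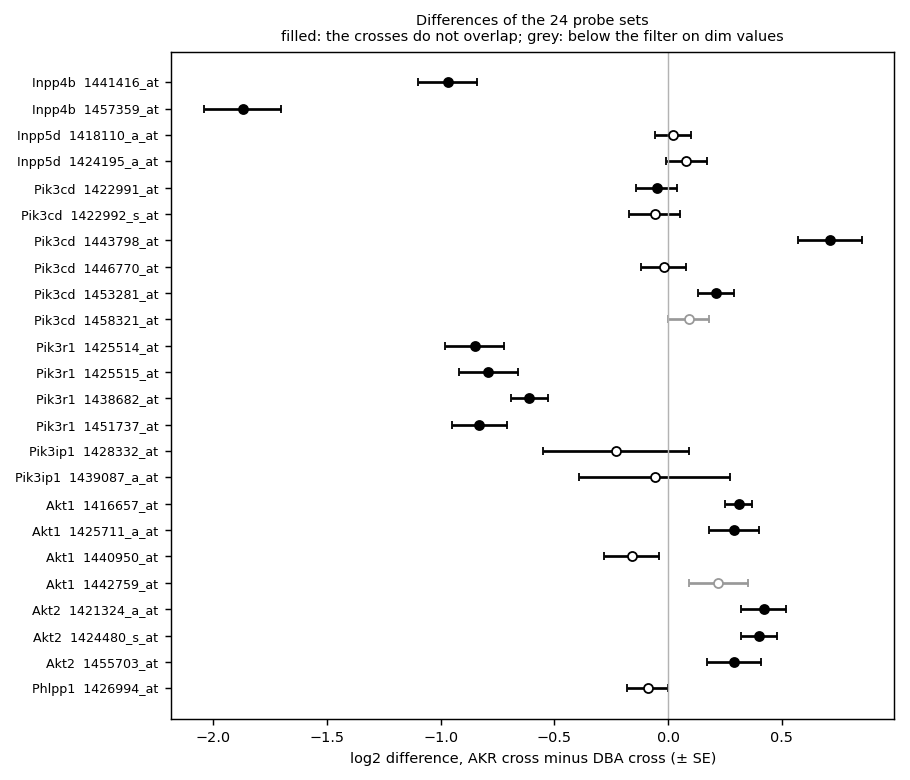
Log2 difference (x axis, AKR cross minus DBA cross, bars show the SE) for each of the 24 probe sets (rows), filled where the crosses do not overlap and grey where the probe set is below the filter on dim values. Inpp4b and Pik3r1 lie left of 0, Akt2 lies right of it, and the 6 Pik3cd probe sets run from -0.06 to 0.71.

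Pik3ip1, a transmembrane protein that binds and inhibits the catalytic subunit, differed more between arrays of 1 cross than between crosses. Probe set 1439087_a_at read 10.00, 10.66 and 11.27 on the AKR arrays, against 10.04, 10.96 and 11.11 on the DBA arrays. Within the AKR cross this is a 2.40-fold range and within the DBA cross a 2.09-fold range. Probe set 1428332_at read 9.50, 9.62 and 10.70 on the AKR arrays, against 9.60, 10.40 and 10.52 on the DBA arrays. Both probe sets were lowest on AKR replicate 1 and DBA replicate 1 and highest on AKR replicate 3 and DBA replicate 3. The differences between crosses were -0.06 ± 0.33 and -0.23 ± 0.32 (SE). The spread within a cross, an SD of 0.60 and 0.59, was larger than that of 99.6% of the probe sets tested for each.

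Pik3ip1 is itself a known FOXO target in T cells, so other FOXO target genes are given beside it. Of 9 tested, Ccr7, S1pr1 and Il7r had their lowest and highest arrays where Pik3ip1 had them, in both crosses. Ccr7, a chemokine receptor of mature thymocytes, read 8.83, 9.25 and 9.77 on the AKR arrays, against 9.20, 9.86 and 10.00 on the DBA arrays. Its spread within a cross was larger than that of 99.1% of probe sets tested. The rest of the 9 did not share that order in both crosses. Ccng2, a cyclin gene, ran the other way, with 11.48, 10.93 and 10.80 on the AKR arrays, against 11.45, 11.24 and 11.04 on the DBA arrays. Gadd45a was also highest on replicate 1 of both crosses, at 7.34 and 7.18. Klf2 and Irs2 had the order of Pik3ip1 in the AKR cross alone. Bcl2l11 and Sesn1 were highest on replicate 3 of both crosses, but in the AKR cross were lowest on replicate 2. These orders were read after the values were seen, and 3 arrays per cross allow no test of them. Over all probe sets tested, deviations from the cross means also correlated between arrays of the same replicate number. The correlations were 0.389 for number 1, 0.07 for number 2 and 0.371 for number 3. Whether the shared order is particular to FOXO targets was not tested.

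**Figure D3:**
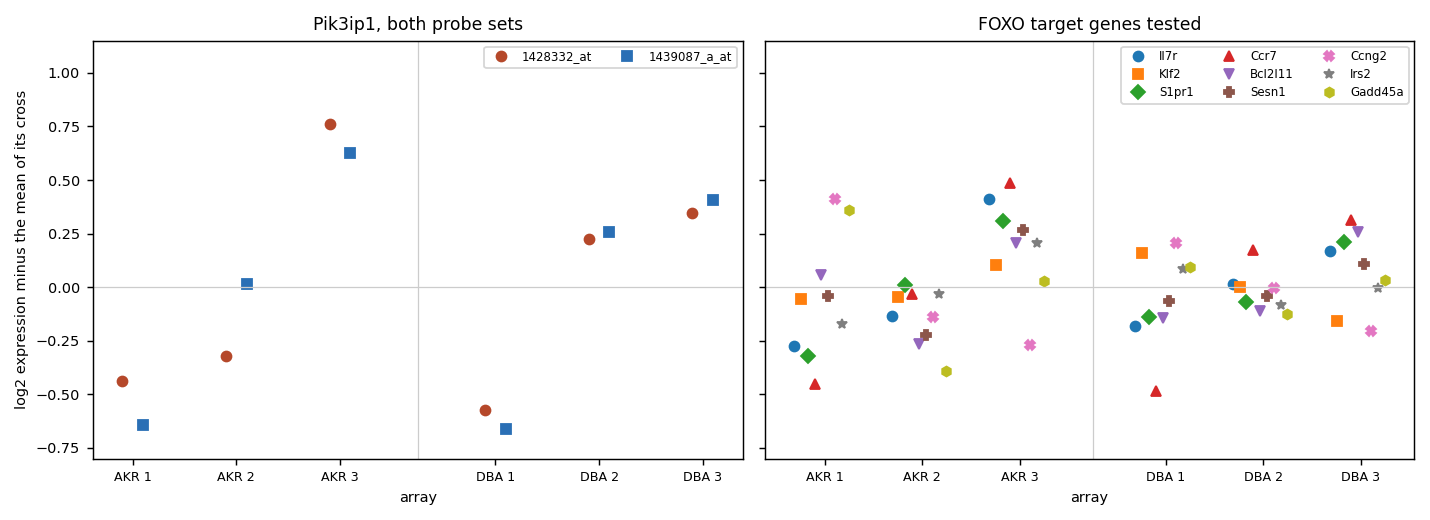
Log2 expression minus the mean of the array's own cross (y axis) on the 6 arrays (x axis, AKR cross left), for both Pik3ip1 probe sets in the left panel and the 9 FOXO target genes tested in the right panel. Pik3ip1 is lowest on the first array of each cross and highest on AKR 3 and DBA 3, as is Ccr7.

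Akt1 and Akt2, the AKT kinases that PIP3 recruits, stood slightly higher in the AKR cross on most probe sets. Akt1 probe set 1416657_at read 10.33, 10.23 and 10.33 on the AKR arrays, against 10.02, 10.02 and 9.93 on the DBA arrays. The crosses did not overlap, and the difference was 0.31 ± 0.06 (SE), or 1.24-fold. Probe set 1425711_a_at read 9.10, 9.09 and 9.18 on the AKR arrays, against 9.00, 8.93 and 8.58 on the DBA arrays, a difference of 0.29 ± 0.11. The other 2 Akt1 probe sets overlapped, with -0.16 ± 0.12 for 1440950_at and 0.22 ± 0.13 for 1442759_at, which was dim on all arrays.

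Akt2 stood higher in the AKR cross on all 3 probe sets, without overlap. Probe set 1424480_s_at read 9.37, 9.22 and 9.35 on the AKR arrays, against 9.03, 8.82 and 8.89 on the DBA arrays. Probe set 1421324_a_at read 8.57, 8.47 and 8.67 on the AKR arrays, against 8.25, 8.21 and 7.99 on the DBA arrays. Their differences were 0.40 ± 0.08 and 0.42 ± 0.10 (SE), and that of 1455703_at was 0.29 ± 0.12. Those folds, of 1.22 to 1.34, are small beside that of Inpp4b.

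Phlpp1, the phosphatase that removes an activating phosphate from AKT, had 1 probe set. It read 7.30, 7.55 and 7.45 on the AKR arrays, against 7.48, 7.49 and 7.59 on the DBA arrays. The crosses overlapped, and the difference was -0.09 ± 0.09 (SE).

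The wider pathway was read from 106 further genes in 10 roles, none of them a member, of which 98 were tested through their brightest probe set. By limma, adjusted over 12855 genes, 14 stood higher in the AKR cross, 11 stood lower and 73 did not pass. Those 25 are 25.5% of the genes tested, where 24.0% of all genes were called (12.5% higher and 11.5% lower), so the pathway was called about as often as the array as a whole. Their median difference was -0.01, against 0.03 over all genes. The count was 10 without AKR replicate 2, DBA replicate 2 or DBA replicate 3. It was 14 when AKR replicate 3 was left out, 16 for DBA replicate 1 and 17 for AKR replicate 1. Calls that held without any 1 array were those of 7 genes, Pi4kb, Icos, Irs2, Pik3cg, Mtmr2, Tbc1d4 and Pik3ca. The pathway lists, too, were drawn up with earlier results of these data known, so their calls and p-values are description.

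Among the class I subunits and adaptors, 2 of 10 were higher in the AKR cross and 0 were lower. Pik3cg, the catalytic subunit gamma that acts below G protein-coupled receptors, read 9.41, 9.29 and 9.36 on the AKR arrays, against 8.73, 8.88 and 8.73 on the DBA arrays. The brightest probe set differed by 0.57 ± 0.08 (SE, adjusted p = 0.00136, limma), but its other probe set differed by -0.90 and was called the opposite way, and their mean gave -0.17 (adjusted p = 0.145, limma). Pik3ca, the broadly expressed catalytic subunit alpha, differed by 0.40 ± 0.09 (adjusted p = 0.0112, limma), and 1 of its 5 other probe sets was called lower in the AKR cross. Their mean gave 0.05 (adjusted p = 0.559, limma). Of 3 class II and class III genes tested, Pik3c3, the class III kinase of autophagy and endosomes, was lower in the AKR cross (-0.32 ± 0.09, adjusted p = 0.0303, limma). That call was lost without any of AKR replicates 1, 2 and 3 and DBA replicates 1 and 3 (adjusted p from 0.0526 to 0.0945, limma).

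Of 21 other phosphatases of phosphoinositides or of inositol phosphates, 2 were higher in the AKR cross, 3 were lower and 16 did not pass. Mtmr2, a myotubularin-related 3-phosphatase, read 7.98, 7.90 and 7.89 on the AKR arrays, against 7.51, 7.33 and 7.26 on the DBA arrays (0.56 ± 0.09, SE, adjusted p = 0.00382, limma). Its other probe set was called in the same direction, at 0.73. Inpp5a, which acts on inositol trisphosphate, was higher in the AKR cross (0.37 ± 0.11, adjusted p = 0.0399, limma), with the call lost without AKR replicate 2 or 3 or DBA replicate 2 or 3 (adjusted p from 0.0975 to 0.121, limma). Mtm1, the founding myotubularin, was lower (-0.34 ± 0.08, adjusted p = 0.0194, limma), with the call lost without AKR replicate 2 (0.0646) or DBA replicate 2 (0.0713). Mtmr6 was lower as well (-0.28 ± 0.08, adjusted p = 0.0297, limma), with all 3 other probe sets called the same way, and its call was lost without any array but AKR replicate 1 (adjusted p from 0.0547 to 0.0918, limma). Inpp4a, the paralogue of Inpp4b, read 7.35, 7.18 and 7.27 on the AKR arrays, against 7.21, 7.32 and 7.12 on the DBA arrays, and is named after its value was seen.

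Other phosphoinositide kinases had 3 of 11 genes higher in the AKR cross and 0 lower. Pi4kb, which makes PI4P at the Golgi, read 8.19, 8.32 and 8.24 on the AKR arrays, against 7.37, 7.24 and 7.02 on the DBA arrays. It was 2.05-fold higher in the AKR cross (1.04 ± 0.10, SE, adjusted p = 0.000387, limma), while the other, at 0.28, did not pass. Pip5k1c, which makes PIP2, differed by 0.36 ± 0.09 (adjusted p = 0.0208, limma), with the call lost without AKR replicate 1 or 3 or DBA replicate 2 or 3 (adjusted p from 0.0617 to 0.0735, limma). Pikfyve, the endosomal kinase of PI3P, differed by 0.30 ± 0.09 (adjusted p = 0.0340, limma), and leaving out any 1 array lost the call (adjusted p from 0.0578 to 0.104, limma).

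Around AKT itself, 14.3% of its activators and SGK genes were called, and 14.3% of its inhibitors and phosphatases. Over all genes 24.0% were called, and 7 genes per role are too few to tell these shares apart. Of 7 genes of AKT-activating kinases, their complexes and SGK kinases, 1 was lower in the AKR cross, Sgk3, which PI3P recruits (-0.23 ± 0.07, adjusted p = 0.0394, limma). Its call was lost without any 1 array (adjusted p from 0.058 to 0.11, limma), and its other probe sets stood at 0.00 and 0.01. Of 7 AKT inhibitors and phosphatases, 1 was higher, Ppp2cb, a catalytic subunit of protein phosphatase 2A (0.22 ± 0.06, adjusted p = 0.0307, limma), also lost without any 1 array (adjusted p from 0.051 to 0.0898, limma). Rictor, Pdpk1, Ppp2r1a and Ppp2ca of these roles had other probe sets called. When probe sets were averaged, limma called Rictor (-0.56, adjusted p = 0.00463) and Pdpk1 (0.28, adjusted p = 0.0251), while Sgk3 (-0.07, adjusted p = 0.407) did not pass.

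Of 14 AKT substrates and mTORC1 genes, 3 stood higher in the AKR cross and 1 stood lower. Tbc1d4, an AKT substrate of glucose transporter traffic, read 7.94, 7.81 and 8.11 on the AKR arrays, against 8.57, 8.32 and 8.55 on the DBA arrays (-0.53 ± 0.11, SE, adjusted p = 0.00846, limma). Akt1s1, an inhibitor of mTORC1 that AKT phosphorylates, was higher (0.32 ± 0.08, adjusted p = 0.0173, limma), with the call lost without AKR replicate 3 (0.058) or DBA replicate 3 (0.0544). Bad, a death-promoting Bcl2 relative, was higher (0.35 ± 0.10, adjusted p = 0.0310, limma), with the call lost without AKR replicate 1 or 2 or DBA replicate 2 or 3 (adjusted p from 0.0729 to 0.102, limma). Gsk3a, a kinase that AKT inhibits, was higher (0.29 ± 0.09, adjusted p = 0.0401, limma), and only AKR replicate 3 could be left out without losing the call (adjusted p from 0.0568 to 0.124 for the other 5 arrays, limma). Foxo1, the main FOXO factor of T cells, read 8.77, 8.92 and 8.87 on the AKR arrays, against 9.00, 9.02 and 9.06 on the DBA arrays, and did not pass (-0.17 ± 0.07, adjusted p = 0.111, limma). Its 2 other probe sets stood at 0.05 and 0.36, and 1 was called higher in the AKR cross.

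Of the 9 FOXO targets, 2 were lower in the AKR cross and 1 was higher. Irs2, an adaptor of insulin receptors, read 6.03, 6.17 and 6.41 on the AKR arrays, against 6.92, 6.75 and 6.83 on the DBA arrays (-0.63 ± 0.12, SE, adjusted p = 0.0059, limma). Il7r, the interleukin-7 receptor chain that keeps T cells alive, read 9.61, 9.75 and 10.30 on the AKR arrays, against 10.32, 10.52 and 10.67 on the DBA arrays (-0.62 ± 0.16, adjusted p = 0.0253, limma). The Il7r call was lost without AKR replicate 1 or 2 or DBA replicate 2 or 3 (adjusted p from 0.0688 to 0.0906, limma), and its other probe set was called the same way at -1.06. Klf2, a transcription factor of thymocyte egress, went the other way (0.37 ± 0.10, adjusted p = 0.0256, limma), with the call lost without AKR replicate 2 or 3 or DBA replicate 2 or 3 (adjusted p from 0.0553 to 0.0814, limma). These 3 genes share a factor by background knowledge and did not share a direction here.

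Of 6 receptors that recruit the kinase, 2 were higher and 2 lower in the AKR cross. Icos, a costimulatory receptor that binds the kinase strongly, read 8.73, 8.63 and 8.86 on the AKR arrays, against 9.66, 9.49 and 9.69 on the DBA arrays (-0.87 ± 0.09, SE, adjusted p = 0.00038, limma). Both of its other probe sets were called the same way, from -1.40 to -0.58. Cd28, the other T cell costimulator on the list, is named after its value was seen, and read 11.32, 11.13 and 11.53 on the AKR arrays, against 11.20, 11.43 and 11.41 on the DBA arrays. Insr, the insulin receptor, was lower (-0.34 ± 0.09, adjusted p = 0.0248, limma), with the call lost without AKR replicate 2 or 3 or DBA replicate 1 or 3 (adjusted p from 0.0507 to 0.0803, limma). Flt3 (0.31 ± 0.09, adjusted p = 0.0380, limma) and Igf1r (0.27 ± 0.08, adjusted p = 0.0448, limma) were higher. Igf1r had 1 of its 4 other probe sets called lower, and the mean of its probe sets gave 0.01 (adjusted p = 0.955, limma). Leaving out any 1 array lost the Flt3 call (adjusted p from 0.058 to 0.12, limma), as did any array but AKR replicate 1 for Igf1r (adjusted p from 0.0624 to 0.143, limma). Of 10 PIP3-binding effectors, 1 was lower, Arap2 (-0.33 ± 0.10, adjusted p = 0.0431, limma), which was lost without any array but AKR replicate 1 (adjusted p from 0.0509 to 0.124, limma), and whose 2 other probe sets were called the same way at -2.17 and -1.30.

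**Figure D4:**
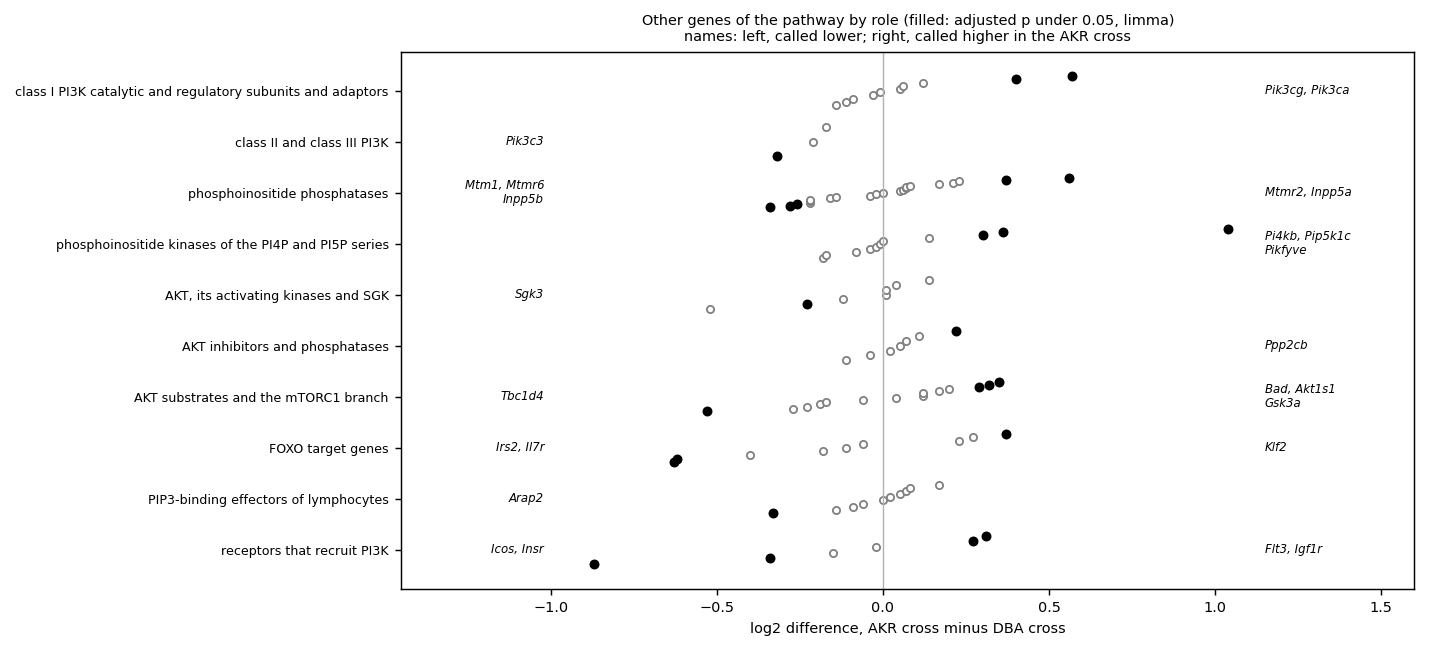
Log2 difference (x axis, AKR cross minus DBA cross) of 98 other pathway genes by role (rows), 1 point per gene, filled where limma gave an adjusted p under 0.05 and named at the side of its direction. Pi4kb lies farthest to the right at 1.04 and Icos farthest to the left at -0.87.

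The genes next to each member were read as well, with 3 tested genes on either side in RefSeq order. Of these 48 neighbours, limma called 5 higher and 4 lower in the AKR cross, or 18.8%, where 24.0% of all genes were called (12.5% higher and 11.5% lower). With 1 array left out, 3 to 7 neighbours were called. The count was 3 without AKR replicate 2, 4 without AKR replicate 1 or DBA replicate 3, and 5 without DBA replicate 2. Next to Inpp4b, Usp38, a deubiquitinase gene, was lower in the AKR cross (-0.63 ± 0.14, SE, adjusted p = 0.0111, limma), and the other 5 did not pass, with 0 called next to Pik3r1. Siva1, an apoptosis gene next to Akt1, was higher (0.63 ± 0.08, adjusted p = 0.000949, limma). Of the 6 genes near Akt2, 2 were called higher in the AKR cross and 1 lower. Pld3 (0.37 ± 0.08, adjusted p = 0.011, limma) and Map3k10 (0.26 ± 0.08, adjusted p = 0.0471, limma) were higher. Zfp60, a zinc finger gene, was lower (-0.52 ± 0.12, adjusted p = 0.0171, limma). The calls of Usp38, Siva1 and Pld3 held on leaving out any 1 array. The Zfp60 call was lost without AKR replicate 2 or DBA replicate 2 (adjusted p from 0.0571 to 0.0603, limma). Of the smaller differences, the calls of Gigyf2, Map3k10 and Pld4 were lost without any 1 array, that of Lzic in 5 of the 6 cases and that of Relch in 3.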

How the data were processed

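RNA from whole thymus was hybridised to 1-colour Affymetrix mouse arrays, and the 6 arrays were grouped by title. The authors deposited log2 values for 45101 probe sets per array. The submitters' processing notes name MAS5 and RMA, with no role or version, and which of them made the log2 values, like the build behind the annotation, is not given in the sources. The number of arrays limits the precision, and p-values measure only the spread between these arrays.

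Deposited values were used unchanged. The 64 control probe sets were left out. A probe set entered the test if 3 or more arrays read above their 40th percentile, which left 27385, and the 2 dim member probe sets have their SE from a fit without that filter. The test was limma 3.58.1 (lmFit, then eBayes with a trend; R 4.3.3), two-sided, Benjamini-Hochberg adjusted, with a threshold of 0.05. A gene was its brightest tested probe set with 1 symbol, in 12855 genes. All 8 members were matched to RefSeq by Entrez identifier. Marker sums add linear values. Figures used matplotlib 3.10.9 (Python 3.11.15). The fit was also run on simulated data with independent noise and few changed probe sets. That setting is unlike these data, so nothing is concluded from it.

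Members and lists were chosen with earlier results of these data known. The text names all member probe sets, up to 4 called genes per pathway role by size, Foxo1, the 5 genes nearest to Inpp4b, and called neighbours with a difference of at least 0.5 in size. Inpp4a and Cd28, the single markers, the neighbours with smaller differences and the FOXO targets given for their order on the arrays were named after their values were seen. Alternatives were other filters, normalizations, a floor and variance models, array weights, a block for the replicate number, leaving out each array, and averaging the probe sets of a gene. Some genes of the lists are not reported here.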

Additional observations from a re-analysis of the deposited data

How the results depend on the processing

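The larger Inpp4b difference (-1.87) ran from -1.88 to -1.84 under 9 alternatives that kept all arrays and from -2.03 to -1.69 with 1 array left out. The 10 called member probe sets stayed called in all 15 alternatives, except Inpp4b 1441416_at, which the filter at the 60th percentile removed. With quantile normalization, Akt1 1416657_at stood at 0.36 and Pik3cd 1422991_at at -0.02. Akt1 1425711_a_at was called in 3 alternatives, and Pik3cd 1453281_at and Akt2 1455703_at in 1 each. With 1 array left out, 5161 to 6317 probe sets were called (7449 with all) and 1843 to 2519 genes (3084 with all). The gene count was 1963 without AKR replicate 2, 1843 leaving out DBA replicate 2 and 1950 leaving out DBA replicate 3. The wider pathway count, 25 with all arrays, was 10 to 17, and fewer samples enter those fits. Averaging probe sets gave 28 wider pathway genes, 11 higher and 17 lower in the AKR cross, and ended the calls of Bad, Igf1r, Pik3ca, Pik3cg and Sgk3. It added calls for 8 genes, Cdkn1b, Inpp1, Mtmr3, Pdpk1, Pik3c2a, Pik3r4, Rictor and Skap1. A variance model without a trend ended 5 calls (Arap2, Gsk3a, Igf1r, Ppp2cb and Sgk3), no filter ended 3 (Flt3, Igf1r and Sgk3), array weights 2 (Arap2 and Gsk3a), median centring and quantile normalization 2 each (Arap2 and Sgk3), and robust eBayes 1 (Il7r). After quantile normalization 62.1% of called genes stood higher in the AKR cross (52% with the deposited values), and the median of all genes was 0.06 (0.03 with the deposited values). The labels do not say that replicate numbers pair the arrays. Deviations from the cross means correlated at 0.389, 0.07 and 0.371 for numbers 1, 2 and 3, and 5 of the 6 arrays correlated best with their own number. With the replicate number as a block, 9839 probe sets, 4194 genes and 35 wider pathway genes were called, 17 higher and 18 lower in the AKR cross.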

Other observations

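Several pathway genes outside the members had probe sets that disagreed with the brightest one, which alone stands for the gene above. They were picked after their values were seen, and calls are those of limma with Benjamini-Hochberg adjustment over probe sets. Rictor, the scaffold of mTORC2, differed by 0.04 ± 0.10 (SE) on its brightest probe set, while 3 of its 4 other probe sets were called lower in the AKR cross, the lowest at -2.02. Skap1, a T cell adaptor, differed by 0.17 ± 0.06 on its brightest probe set, and 1 of the other 2 was called lower, at -1.31. Dock2, a guanine exchange factor of lymphocyte migration, had 2 other probe sets called in opposite directions, at -0.74 and 0.82. Cdkn1b, a cell cycle inhibitor, differed by 0.12 ± 0.10 on its brightest probe set and was called lower on the other, at -0.93. Pdpk1, the kinase that activates AKT, differed by -0.12 ± 0.06 on its brightest probe set and was called higher on the other, at 0.67. When the probe sets of each gene were averaged, limma called Rictor (-0.56, adjusted p = 0.00463), Cdkn1b (-0.40, adjusted p = 0.0105) and Skap1 (-0.30, adjusted p = 0.0309) lower and Pdpk1 (0.28, adjusted p = 0.0251) higher in the AKR cross, while Dock2 (-0.02, adjusted p = 0.895) did not pass.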
